A study of Mus musculus with 10 samples.

Results

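The Frizzled genes encode a family of membrane receptors for Wnt proteins, and their transcripts were examined in embryonic mouse forebrains with and without an active form of the transcription factor FoxO3. The members were the 10 mouse genes Fzd1 to Fzd10, taken by name from the probe sets whose platform entry gives exactly 1 symbol. All 10 were found among 19938 genes, each with 1 probe set. Probe sets were selected on their mean level over the 10 arrays, which takes no account of the groups and here had nothing to choose between. The transgenic group held 5 embryos, called dtg in the sample titles, in which a constitutively active FoxO3 allele was driven by the CaMKIIa promoter, which the study describes as specific to the forebrain. The control group held 5 embryos, called stg, for which the labels state no more than that they came from control mice; whether these carry a transgene of their own is not said. All embryos were at E12.5, on a mixed CD1/NMRI background, and came from 2 dams; which embryo belongs to which dam is not given, so litter and group cannot be told apart. Each array measured RNA from part of a divided forebrain that had been cut away from the main part of the thalamus. The comparison asks which Frizzled transcripts differ in level between the transgenic and the control forebrains.

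Frizzled receptors span the membrane several times and bind Wnt ligands through a cysteine-rich domain outside the cell. With the co-receptors LRP5 or LRP6 they recruit Dishevelled proteins, which stabilizes beta-catenin and lets TCF/LEF factors switch on target genes, and in other settings they act without beta-catenin in planar cell polarity and axon guidance. In the embryonic forebrain Wnt signals from the dorsal midline pattern the cortex and hippocampus and influence whether progenitors divide or become neurons.

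The values are log2 intensities, and the table holds no background value, so no gene could be called present or absent and levels of different genes were not ranked. Array medians lay between 5.36 and 5.39. Foxo3 read 6.95, 7.13, 7.10, 6.76 and 6.96 in transgenic embryos 1 to 5, against 6.50, 6.61, 6.59, 6.65 and 6.87 in control embryos 1 to 5, a difference of 0.34 that did not pass over all genes (limma adjusted p = 0.218). Control embryo 5 was the least similar to the rest: its correlation with the other arrays averaged 0.985, against 0.992 to 0.993 for each of the other 9. Its neuron marker mean over 13 genes was 7.57, against 8.53 to 9.11 in transgenic and 8.58 to 8.85 in the other control embryos. Its mesenchyme marker mean over 10 genes was 8.13, against 6.47 to 7.20 in transgenic and 6.20 to 7.11 in the other control embryos. Telencephalon markers, 9 of which were measured, had means of 7.29 to 7.59 in transgenic and 6.84 to 8.10 in control embryos, the lowest being control embryo 5. Thalamus markers also varied, and the mean of 10 genes was 6.80, 6.82, 6.91, 6.15 and 6.37 in transgenic embryos 1 to 5, against 5.71, 5.67, 6.36, 6.49 and 5.49 in control embryos 1 to 5. Between the groups, 9 of 10 thalamus and 13 of 13 neuron markers read higher in transgenic embryos, where 48.1% of all genes did. The neuron count includes control embryo 5, and the neuron means of the other control embryos (8.58 to 8.85) lay within the transgenic range (8.53 to 9.11). Of the telencephalon markers 8 of 9 read lower, where 51.9% of all genes did. No marker of these 3 lists passed over all genes in limma. Of 11 radial glia markers 5 read higher and 6 lower, with a mean of 8.85 in transgenic and 8.87 in control embryos. In such whole-tissue RNA, fewer cells of a type and less transcript per cell cannot be told apart.

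Since the transgenic allele encodes an active FoxO3, the stretch from 250 bases before to 50 bases after the gene start was searched for forkhead letters. The search covered the members with a RefSeq promoter entry (GRCm38.p6), which were Fzd1, Fzd4, Fzd5, Fzd7, Fzd9 and Fzd10. The FOXO consensus GTAAACA, read on both strands, was in 0 of these 6 windows, against 3.65% of 32851 windows of the same length. Fzd2, Fzd3, Fzd6 and Fzd8 had no promoter entry and were not searched. The shorter forkhead core AAACA, which is part of that consensus, was in 2 of the 6 on either strand, against 50.5% of all windows. The TCF/LEF consensus CTTTGAT, through which beta-catenin acts, was in 0 of the 6 on either strand, against 3.73% of all windows. At shares this low, 6 windows are too few to show a lack of either consensus. The windows with the core are printed 5′ to 3′ on the plus strand, with the core or its reverse complement in capitals. They are Fzd10 at chr5:128600856-128601155 and Fzd7 at chr1:59481897-59482196.
Fzd10: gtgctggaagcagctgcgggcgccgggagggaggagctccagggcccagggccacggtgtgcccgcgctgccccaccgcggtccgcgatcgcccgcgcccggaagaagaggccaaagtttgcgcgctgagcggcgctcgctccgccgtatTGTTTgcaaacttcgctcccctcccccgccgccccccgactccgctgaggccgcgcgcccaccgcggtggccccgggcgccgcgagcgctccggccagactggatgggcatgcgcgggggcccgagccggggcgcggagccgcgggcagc
Fzd7: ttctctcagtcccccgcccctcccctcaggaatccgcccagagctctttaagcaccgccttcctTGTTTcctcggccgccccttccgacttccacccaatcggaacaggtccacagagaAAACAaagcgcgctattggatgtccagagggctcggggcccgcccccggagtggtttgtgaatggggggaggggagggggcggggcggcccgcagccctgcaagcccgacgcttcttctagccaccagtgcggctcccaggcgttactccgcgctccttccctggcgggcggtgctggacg
The Fzd10 window holds 1 such run of letters and the Fzd7 window 2, and a run of letters is a description of the sequence, not a binding site.

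Across the family, Fzd8 fell in transgenic forebrains and no other Frizzled gene passed the test over all genes. That is 1 of 10 members at a limma adjusted p below 0.05, where 0.105% of all genes passed in either direction, 0.0401% downward and 0.0652% upward. Of the members 7 read lower and 3 higher, with a median log2 difference of -0.10, against a median of -0.0038 over all genes, of which 51.9% read lower. In the same limma fit 2 of 10 members, Fzd8 and Fzd3, passed an unadjusted threshold of 0.05, against 7.58% of all genes. The groups did not overlap in 2 of 10 members, again Fzd8, below in transgenic embryos, and Fzd3, above, against 1.60% of all genes (0.622% below and 0.978% above). The members were chosen with results for Fzd8 known, so this count is a description of the family.

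**Figure D1:**
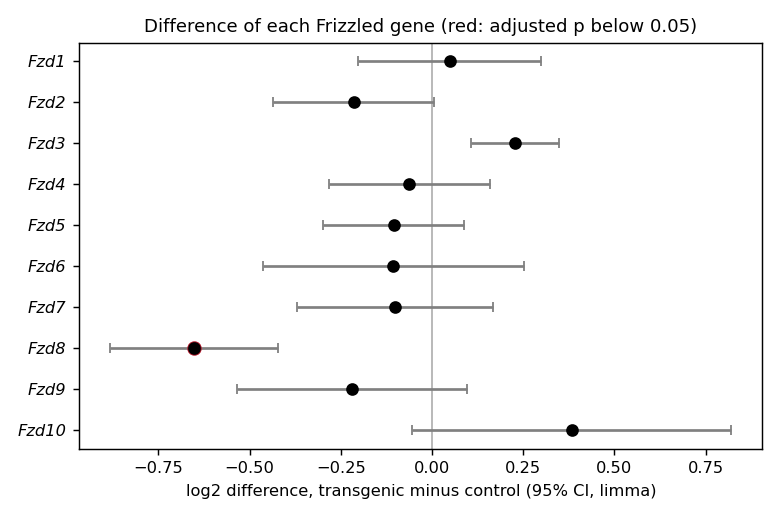
Log2 difference of each Frizzled gene, transgenic minus control, on the horizontal axis, with the 95% confidence interval from limma (n = 5 per group); red marks an adjusted p below 0.05. Fzd8 at -0.65 and Fzd3 at 0.23 have intervals that leave out 0, and the intervals of the other 8 members contain it.

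Fzd8, whose product is a high-affinity Wnt receptor closely related to that of Fzd5 and is known from progenitors of the developing telencephalon, read 7.24, 7.50, 7.29, 7.53 and 7.52 in transgenic embryos 1 to 5. It read 8.22, 8.29, 8.04, 7.71 and 8.09 in control embryos 1 to 5. Every transgenic embryo lay below every control embryo, and the nearest control, embryo 4, lay 0.18 above the highest transgenic value. The mean was 7.42 ± 0.14 in transgenic and 8.07 ± 0.22 in control forebrains (SD, n = 5 each). Fzd8 thus fell by 0.65 ± 0.11 on the log2 scale (SE; 95% interval -0.88 to -0.42), a transgenic level of 0.636 times the control level (limma adjusted p = 0.0448). This adjusted p lies close to the threshold. It passed in 1 of the 10 fits that left out an embryo, the one without control embryo 4 (difference -0.74, adjusted p = 0.00823). In the other 9 of these fits the difference stayed between -0.68 and -0.60 and the adjusted p ran from 0.053 (without control embryo 5) to 0.152. With the thalamus, hypothalamus and midbrain markers as a covariate the difference was -0.42 (limma adjusted p = 0.688). Over all genes 4 passed in that fit, against 21 in the fit on group alone. The telencephalon marker mean was 7.37, 7.29, 7.29, 7.42 and 7.59 in transgenic embryos 1 to 5, against 8.09, 8.10, 7.31, 7.78 and 6.84 in control embryos 1 to 5. The part of these tissue markers in the Fzd8 difference was not tested. With the neuron markers as a covariate the difference was -0.61, and with the mesenchyme markers, a fit chosen after seeing the data, it was -0.65. Fzd8 passed in both (limma adjusted p = 0.0396 and 0.0189). Over all genes 92 and 107 passed in these fits, against 21 in the fit on group alone. It did not pass when every probe set was tested as a row of its own (limma adjusted p = 0.139). That fit leaves the difference as it is, but it estimates the shared variances over all probe sets and adjusts over more features.

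**Figure D2:**
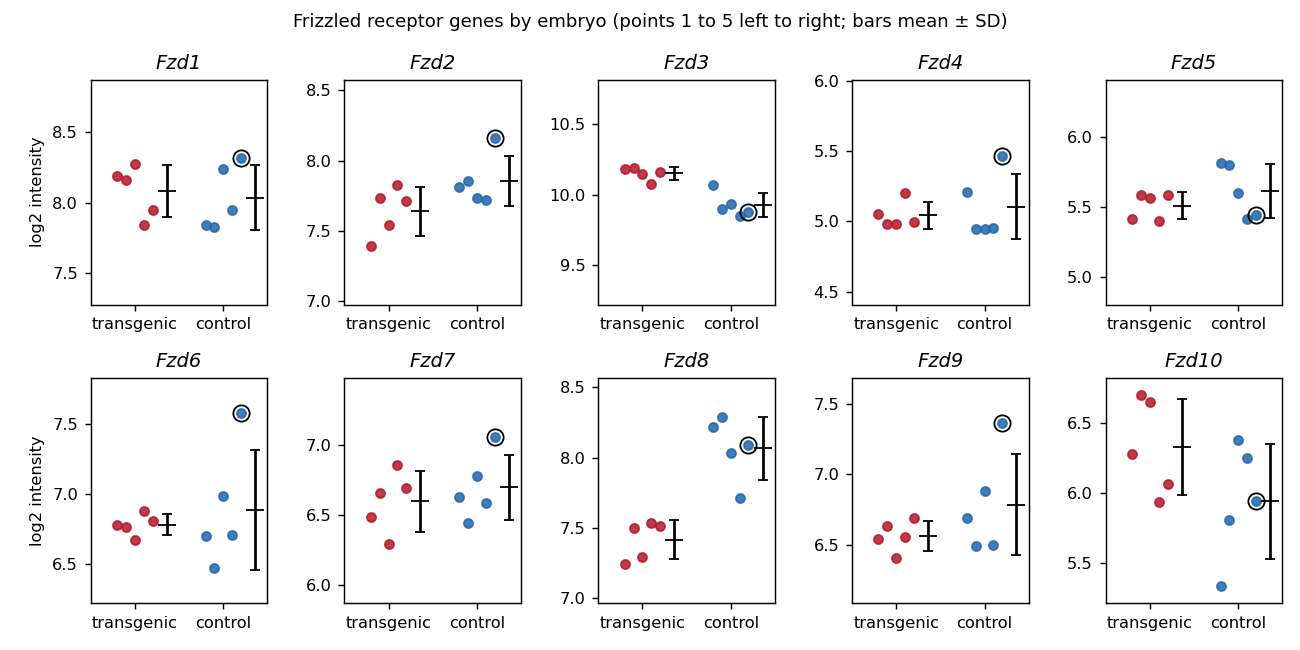
Log2 intensity of each Frizzled gene in 5 transgenic (red) and 5 control (blue) embryos, one panel per gene with the same span in log2 units, points in the order of embryo number, and mean ± SD beside each group; the ringed point is control embryo 5. The groups do not overlap for Fzd8 and Fzd3, and control embryo 5 is the highest of all 10 embryos for Fzd1, Fzd2, Fzd4, Fzd6, Fzd7 and Fzd9.

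**Figure D3:**
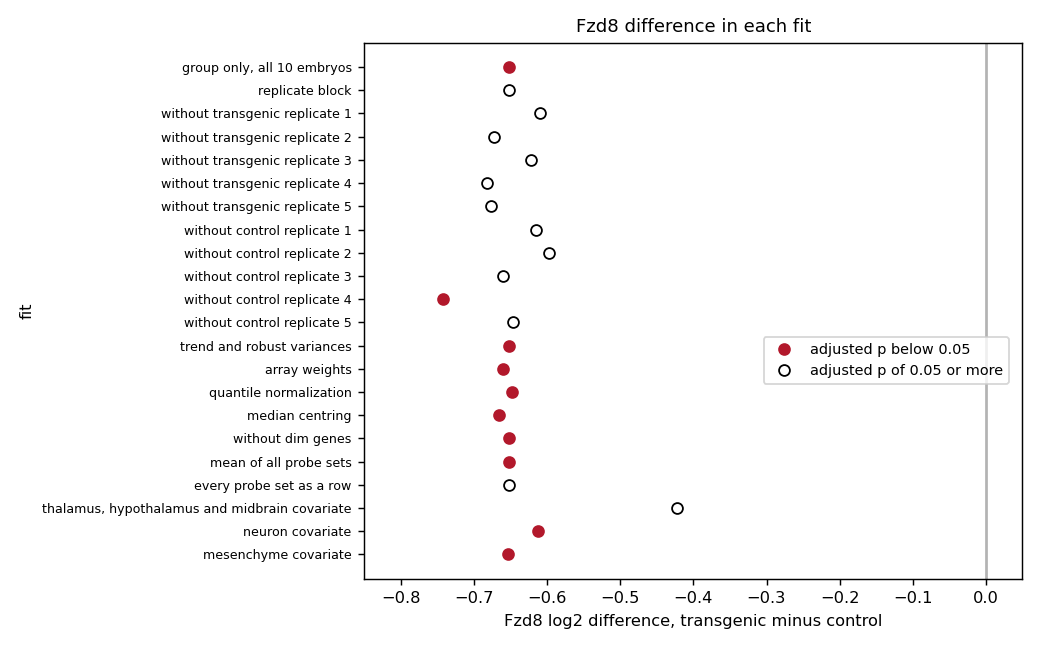
Log2 difference of Fzd8, transgenic minus control, in the fit on group alone and in 21 other fits named on the vertical axis; filled red points have an adjusted p below 0.05 and open points do not. All differences are negative, from -0.74 to -0.42.

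Fzd5, the closest relative of Fzd8, is known from the developing eye and hypothalamus. It read 5.41, 5.59, 5.57, 5.40 and 5.59 in transgenic embryos 1 to 5, against 5.81, 5.80, 5.60, 5.42 and 5.44 in control embryos 1 to 5. Control embryos 1 and 2 were the highest, as they were for Fzd8, but controls 4 and 5 lay among the transgenic values. The difference was -0.10 (95% interval -0.30 to 0.088; limma adjusted p = 0.845).

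Fzd3 and Fzd6 form a pair of related receptors best known for planar cell polarity, and Fzd3 is required in mice for the growth of major axon tracts of the forebrain. Fzd3 read 10.18, 10.19, 10.15, 10.08 and 10.16 in transgenic embryos 1 to 5, against 10.07, 9.90, 9.93, 9.84 and 9.88 in control embryos 1 to 5. All transgenic values lay above all control values, though the gap between transgenic embryo 4 and control embryo 1 was only 0.0048. The difference was 0.23 ± 0.055 (SE; 95% interval 0.11 to 0.35) and did not pass over all genes (limma adjusted p = 0.207). Over all 21 other fits it ran from 0.21 to 0.26 and passed in none. Fzd3 had the smallest spread of the family, with an SD of 0.046 in transgenic and 0.087 in control embryos.

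Fzd6, which orients hairs in mouse skin, read 6.78, 6.76, 6.67, 6.88 and 6.81 in transgenic embryos 1 to 5, against 6.70, 6.47, 6.98, 6.71 and 7.58 in control embryos 1 to 5. The transgenic values lay within the control range, whose upper end was set by control embryo 5. The Fzd6 difference was -0.11 (limma adjusted p = 0.925) and turned to 0.067 without that embryo. The control SD was 0.43 with it and 0.21 without it, against 0.074 in transgenic embryos.

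Fzd1, Fzd2 and Fzd7 form a subfamily of closely related receptors that act in beta-catenin signalling. Fzd2 read 7.39, 7.73, 7.54, 7.83 and 7.71 in transgenic embryos 1 to 5, against 7.81, 7.86, 7.73, 7.72 and 8.16 in control embryos 1 to 5. Of the transgenic embryos 3 lay below all controls and the groups overlapped. Its difference of -0.21 did not pass (95% interval -0.43 to 0.0057; limma adjusted p = 0.671) and was -0.14 without control embryo 5. Fzd1 read 7.84 to 8.28 in transgenic and 7.83 to 8.32 in control embryos, and its difference of 0.048 (95% interval -0.20 to 0.30) changed sign in 3 fits that left out an embryo, with values no lower than -0.0031. Fzd7, a receptor known from stem and progenitor cells, read 6.29 to 6.86 in transgenic and 6.44 to 7.05 in control embryos (difference -0.10; 95% interval -0.37 to 0.17). In both genes the groups overlapped over most of their range.

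Fzd4, Fzd9 and Fzd10 belong to a further branch of the family. Fzd4, the receptor for the non-Wnt ligand Norrin that is needed for retinal and brain blood vessels, read 4.98 to 5.20 in transgenic embryos. In control embryos it read 4.95 to 5.47, where control embryo 5 was the highest. The Fzd4 difference was -0.062 (95% interval -0.28 to 0.16) and turned to 0.029 without control embryo 5. Fzd9, which lies in the human region deleted in Williams syndrome, read 6.54, 6.63, 6.41, 6.55 and 6.69 in transgenic embryos 1 to 5, against 6.69, 6.49, 6.88, 6.49 and 7.36 in control embryos 1 to 5. Its difference was -0.22 (95% interval -0.53 to 0.095; limma adjusted p = 0.796) and shrank to -0.075 without control embryo 5.

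Fzd10, known from the dorsal midline of the embryonic brain, had the widest range of the family over the 10 embryos, 1.37 log2 units. It read 6.28, 6.70, 6.65, 5.93 and 6.06 in transgenic embryos 1 to 5, against 5.33, 5.81, 6.38, 6.25 and 5.94 in control embryos 1 to 5. The groups overlapped broadly, with 2 transgenic embryos above all controls and control embryos 3 and 4 above transgenic embryos 4 and 5. The difference of 0.38 ± 0.20 (SE; 95% interval -0.054 to 0.82) did not pass (limma adjusted p = 0.720). The 5 embryos with the highest Fzd10 were transgenic 1 to 3 and control 3 and 4. Of these, transgenic 1 to 3 and control 4 also had the highest thalamus marker means, while control 3, at 6.36, lay just below transgenic 5, at 6.37. With thalamus, hypothalamus and midbrain markers as a covariate the Fzd10 difference was 0.055; the part of these markers was not tested.

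**Figure D4:**
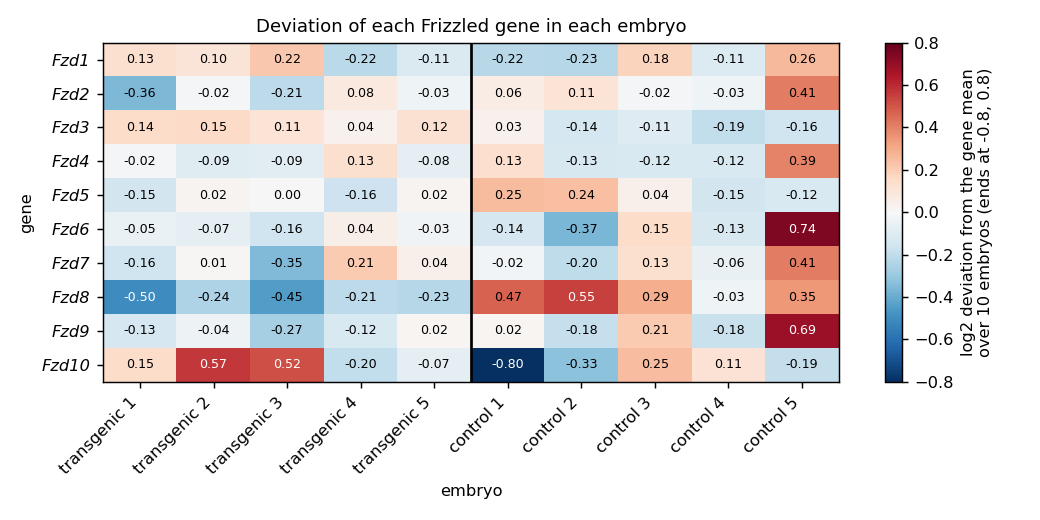
Deviation of each Frizzled gene (rows) in each embryo (columns, transgenic left of the line and control right of it) from that gene's mean over the 10 embryos, in log2 units, printed in each cell and coloured red above and blue below the mean. The Fzd8 row is negative in all 5 transgenic embryos and between -0.03 and 0.55 in controls, and the control 5 column holds values of 0.26 to 0.74 in 7 rows, among them Fzd8 at 0.35.

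Much of the spread of the family outside Fzd8 lay in control embryo 5. That embryo had the highest value of all 10 for 6 of the 10 members, against 18.4% of all genes. Relative to the mean of the other 4 controls it was 0.86 higher for Fzd6, 0.72 for Fzd9, 0.45 each for Fzd4 and Fzd7, 0.38 for Fzd2 and 0.36 for Fzd1. For Fzd8 and Fzd10 its distance was 0.029 and -0.00074, for Fzd3 -0.058 and for Fzd5 -0.21. Without it the median difference of the 10 members was 0.0086, against -0.10 with it. With the mesenchyme markers as a covariate, a fit chosen after seeing the data, the differences of Fzd6 and Fzd9 were -0.074 and -0.19, and the part of the mesenchyme markers was not tested.

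The genes whose deviations from the group means most resembled those of Fzd8 over the 10 embryos were Baz1b, a chromatin remodelling subunit, Fance, of the Fanconi anaemia DNA repair pathway, Uba7, an activating enzyme for the ubiquitin-like ISG15, the kinetochore gene Mis12 and Paxip1, which takes part in the DNA damage response. Their Pearson correlations ran from 0.908 to 0.920. They are the highest of 11521 genes searched and are given as a ranking without a test. Without control embryo 5, which for Fzd8 lay 0.023 above the control mean, the correlations ran from 0.916 to 0.982. Control embryo 4 was the lowest control for Fzd8 and for each of these 5 genes, and the correlations were not computed without it. None of the 5 passed the test between groups, with log2 differences between -0.12 and -0.023 and adjusted p-values of 0.696 or more.

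The other genes of the Wnt pathway were counted in lists by role. Of 83 measured pathway genes outside the family, 1 passed upward and 0 downward in limma (adjusted p below 0.05), against 0.105% of all genes in either direction, while 16 had an unadjusted p below 0.05, against 7.58% of all genes. Their median log2 difference was 0.0080, with 45 higher and 38 lower, where 48.1% of all genes read higher and 51.9% lower. These shares over all genes are the background for the counts in each list. In 4 of the 83 the groups did not overlap, against 1.60% of all genes. These were Sfrp2, Wnt7a, Wnt2b and Tspan12. For Wnt2b the groups were barely apart, with a highest transgenic value of 5.727 and a lowest control value of 5.730.

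Among the ligands 0 of 19 passed, 4 passed without adjustment in limma (7.58% of all genes did), and 8 read higher and 11 lower (48.1% and 51.9% of all genes). Wnt7a, a ligand made by cortical progenitors, came closest in p. It read 6.08, 6.40, 6.29, 6.45 and 6.40 in transgenic embryos 1 to 5, against 7.24, 7.08, 6.78, 6.78 and 6.70 in control embryos 1 to 5, so that, as for Fzd8, every transgenic embryo lay below every control. The Wnt7a difference of -0.59 ± 0.11 (SE) did not pass (limma adjusted p = 0.0823). It passed in 1 of 10 fits that left out an embryo, the one without control embryo 5 (difference -0.65, adjusted p = 0.0458). Of the 11 other fits it passed in 3, with adjusted p from 0.0124 (mesenchyme covariate, chosen after seeing the data) to 0.640. Wnt3 differed by 0.74 (adjusted p = 0.206), with 4 of 5 transgenic embryos above all controls. Wnt2b, a ligand of the cortical hem, differed by -0.27 (adjusted p = 0.510). For ligand export, Wls, the carrier of Wnt proteins, differed by 0.30 (95% interval -0.25 to 0.84, limma adjusted p = 0.842). Over the fits that left out an embryo the Wls difference ran from 0.075 to 0.48. Porcn, which attaches the lipid of Wnt proteins, differed by -0.014.

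None of the 6 co-receptor genes passed in limma, and 0 did without adjustment. The co-receptor Lrp5 differed by -0.15 (95% interval -0.32 to 0.025) and Lrp6 by 0.0075 (95% interval -0.11 to 0.13), which turned to -0.0054 with median centring. Ror2 and Ror1, receptor kinases for Wnt5a, differed by -0.15 and -0.13, and both turned positive without control embryo 5, at 0.018 and 0.048. Of the Fzd4 partners, Tspan12, a tetraspanin that enhances Norrin signalling, read 7.20, 6.97, 6.92, 7.19 and 7.20 in transgenic embryos 1 to 5. It read 7.66, 7.46, 7.51, 7.35 and 7.66 in control embryos 1 to 5, all above the transgenic values. The Tspan12 difference of -0.43 ± 0.083 (SE) did not pass (limma adjusted p = 0.0896). It passed in 1 of 10 fits that left out an embryo, the one without control embryo 4 (difference -0.48, adjusted p = 0.047). Of the 11 other fits it passed in 1, with the mesenchyme covariate chosen after seeing the data (adjusted p = 0.0435). In those 11 fits the adjusted p reached 0.776 and the difference lay between -0.44 and -0.25. Ndp, which encodes Norrin, differed by 0.013 (95% interval -0.22 to 0.25). Smo, the Hedgehog signal transducer that shares the Frizzled fold, differed by -0.047 (95% interval -0.23 to 0.14).

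Of 11 secreted antagonists Sfrp2, which carries a Frizzled-like cysteine-rich domain and can bind Wnts, was the single one that rose. Without adjustment 3 of the 11 passed in limma, the others being Sfrp5 at 0.29 and Sfrp1 at -0.36, which are named here after their values were seen. Sfrp2 read 8.32, 8.52, 8.22, 8.48 and 8.49 in transgenic embryos 1 to 5, against 7.82, 7.77, 7.87, 7.91 and 7.70 in control embryos 1 to 5. The groups lay apart and the difference was 0.59 ± 0.071 (SE; limma adjusted p = 0.00759), past the threshold in all 10 fits that left out an embryo. With thalamus, hypothalamus and midbrain markers as a covariate the Sfrp2 difference was 0.55 and no longer passed (limma adjusted p = 0.254). Over all genes 4 passed in that fit, against 21 in the fit on group alone. Among 9 genes that set receptor turnover none passed in limma, and 1, Rspo3, did without adjustment, where 7.58% of all genes did. These include the R-spondins, which protect Frizzled receptors from the ubiquitin ligases Znrf3 and Rnf43, and Rspo3 and Rspo2 differed by 0.39 and 0.31 while their receptor gene Lgr4 differed by 0.17.

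Inside the cell 0 of 14 relay genes passed in limma, with or without adjustment, and their differences lay between -0.11 and 0.16. The smallest p-values there belonged to the beta-catenin cofactor gene Bcl9l at -0.11, the Dishevelled gene Dvl3 at 0.10 and the kinase gene Gsk3a at -0.093. Of 3 measured TCF/LEF genes none passed in limma, and 2 did without adjustment, against 7.58% of all genes. Tcf7l2, which is also a marker of the thalamus, read 10.10, 9.82, 10.27, 8.45 and 9.10 in transgenic embryos 1 to 5, against 6.76, 6.69, 9.44, 9.50 and 6.65 in control embryos 1 to 5. Its high controls were embryos 3 and 4, the controls with the highest thalamus marker means. The Tcf7l2 difference was 1.74 ± 0.62 (SE; limma adjusted p = 0.531), and -0.22 with thalamus, hypothalamus and midbrain markers as a covariate. Tcf7l1 differed by -0.37 and Lef1 by 0.28. Of 12 measured Wnt target genes none passed in limma and 2 did without adjustment, against 7.58% of all genes. Of these target genes 10 read higher and 2 lower, where 48.1% of all genes read higher, and their median difference was 0.090. The 3 with the smallest p-values were Ccnd1, which encodes cyclin D1, at 0.35, the Wnt inhibitor gene Apcdd1 at 0.44 and Lef1. Of 9 planar polarity genes none passed in limma and 3 did without adjustment, against 7.58% of all genes: Celsr1 differed by -0.41 (adjusted p = 0.302), Prickle2 by 0.56 (adjusted p = 0.515) and Celsr2 by 0.14 (adjusted p = 0.629).

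**Figure D5:**
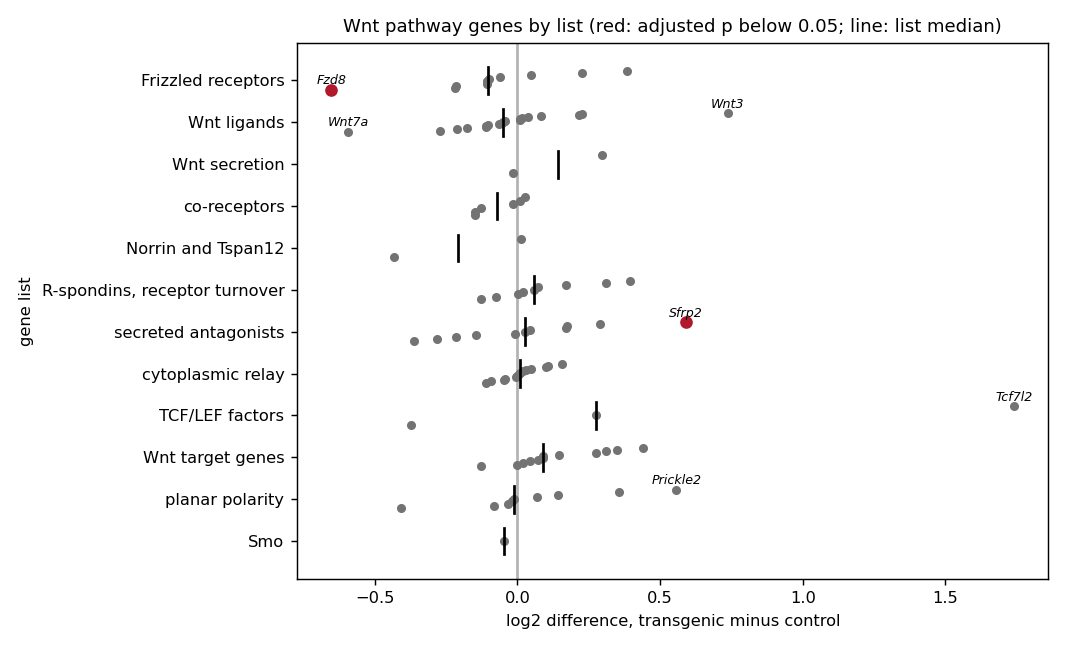
Log2 difference, transgenic minus control, of every measured gene (points) in the Frizzled family and in 11 lists of other Wnt pathway genes, with the list median as a black line; red points have an adjusted p below 0.05 and genes past 0.5 in either direction are named. Fzd8 at -0.65 and Sfrp2 at 0.59 are the red points.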

How the data were processed

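RNA from 10 embryonic forebrains was measured on 1 Affymetrix array per embryo, labelled with biotin. The authors deposited log2 intensities of 35556 probe sets. Per the submitters' processing notes the software was Affymetrix Expression Console; algorithm and version are not given in the sources used here. No further scaling was applied. Probe sets naming 1 gene (21789 of 35556) gave 19938 genes through the platform's gene table, set against the RefSeq table of GRCm38.p6, with the probe set of highest mean kept per gene.

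The transgenic and control groups entered a limma fit (3.58.1, R 4.3.3) with group as its only term, empirical Bayes variances and two-sided tests. P-values were adjusted by Benjamini-Hochberg across all genes at a threshold of 0.05. The procedure was tested on simulated data with independent genes and the same spread in both groups. Those data held no litter, tissue content or outlying embryo, so the test does not cover these. The number of arrays limits the precision. Nothing says that embryos of 1 group share a litter or not, and p-values measure the spread between these embryos.

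The members, gene lists and alternatives were chosen with earlier results of these data known. Named genes were the 10 members, Foxo3, Camk2a, receptor partners, in each pathway list those past the threshold or otherwise up to 3 with the smallest p, and the 5 genes most like Fzd8 above the 40th percentile of level, clone names skipped. The endogenous Camk2a transcript gave a difference of -0.31 (adjusted p = 0.391).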

Additional observations from a re-analysis of the deposited data

Results flagged for a closer look

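In 88 groups of 5 embryos (44 named genes in 2 groups), the distance of the highest or lowest embryo from its neighbour was set against the range of the group, and 5 groups exceeded Dixon's critical value of 0.71; chance gives about 5%. None of the 20 groups of Frizzled values did. Wnt2b was lowest in transgenic embryo 4, at 5.41. Tcf7l1 was highest in transgenic embryo 2, at 6.79. Control embryo 5 was the lowest control for Gsk3a, at 7.96, and the highest control for Smo, at 8.74. Mis12, one of the genes most like Fzd8, was lowest among controls in embryo 4, at 7.66.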

How the results depend on the processing

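The direction of the Fzd8, Fzd3, Fzd5 and Fzd10 differences held in all alternatives, and quantile normalization or median centring turned none of the 10 members. Over fits that left out 1 embryo, genes called ranged from 7 to 58 (21 with all embryos), the lowest when transgenic embryo 1 and the highest when control embryo 4 was left out, Frizzled members called from 0 to 1, the Frizzled median from -0.14 to 0.0086, and other pathway genes called from 1 to 2. Genes called were 2 with the replicate number as a block, 39 with array weights, 9 with every probe set as a row, 4 with the thalamus, hypothalamus and midbrain covariate, 92 with the neuron covariate, 107 with the mesenchyme covariate (chosen after seeing the data) and 55 at a threshold of 0.1. Frizzled members called were 0 with the replicate block (Fzd8 limma adjusted p = 0.195) and 0 with every probe set as a row (adjusted p = 0.139). They were also 0 with the thalamus, hypothalamus and midbrain covariate. Other pathway genes called were 0 with the replicate block (Sfrp2 limma adjusted p = 0.0947). They were also 0 with the thalamus, hypothalamus and midbrain covariate (Sfrp2 limma adjusted p = 0.254). They were 2 with array weights, 4 with the neuron covariate, 3 with the mesenchyme covariate and 3 at a threshold of 0.1. Testing every probe set adjusts over more features and also estimates the shared variances anew. The causes of the changes in these counts were not tested. The labels do not say that replicate numbers pair the embryos. Deviations of same-numbered embryos correlated above 0.1 in 1 of 5 pairs, and 0 of 5 transgenic embryos correlated best with the control of its number. Correlations over all genes in 5 pairs cannot show whether same-numbered embryos shared a litter or were processed together.

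The Frizzled median was -0.046 with array weights and 0.043 with the neuron covariate. With the thalamus, hypothalamus and midbrain covariate the Frizzled median was 0.16. In that fit these differences changed sign: Fzd2 0.11, Fzd4 0.25, Fzd6 0.35, Fzd7 0.24, Fzd9 0.22, Lrp5 0.038, Ndp -0.11, Ror2 0.41, Ror1 0.26, Lgr4 -0.011, Tcf7l2 -0.22, Tcf7l1 0.021, Smo 0.19, Fance 0.051, Uba7 0.11, Mis12 0.081 and Paxip1 0.024. With the neuron covariate Fzd4 was 0.041, Fzd6 0.10, Fzd7 0.045, Ndp -0.068, Ror2 0.11, Ror1 0.094, Smo 0.053 and Uba7 0.013. Ndp was also -0.051 with array weights, -0.00032 with median centring and -0.0014 with the mesenchyme covariate, and Lrp6 was -0.0054 with median centring. Over fits that left out 1 embryo, signs changed within -0.0031 to 0.12 for Fzd1, -0.10 to 0.029 for Fzd4, -0.21 to 0.067 for Fzd6, -0.031 to 0.035 for Lrp6, -0.075 to 0.068 for Ndp, -0.25 to 0.018 for Ror2, -0.24 to 0.048 for Ror1, -0.064 to 0.044 for Porcn and -0.084 to 0.023 for Smo.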

Other observations

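Fzd10os, a transcript listed beside Fzd10 on the platform and picked after its values were seen, read 4.92 to 5.24 in transgenic and 5.01 to 5.18 in control embryos. Its log2 difference was 0.0036 (95% interval -0.14 to 0.15; limma adjusted p = 0.995), where Fzd10 differed by 0.38.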
